A study of Mus musculus with 2 samples.

Results

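Preserved proximal convoluted tubule spots are the 79 spots of 1 kidney section in which genes of the proximal convoluted tubule took the largest share of the captured RNA. They were chosen on measured values. Among the 788 spots with at least 1000 UMIs (unique molecular identifiers, counts of distinct captured RNA molecules) in the section labelled SH045, the summed UMIs of Slc34a1, Slc22a6, Slc22a8 and Miox were divided by the spot's UMIs. Spots at or above the 90th percentile of this score were called preserved, and the other 709 spots, the remaining spots, served as the comparator. The section held 790 spots and the series 1466.

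The section came from a C57BL/6 mouse with unilateral ureteral obstruction, in which 1 ureter is tied off, given SH045, and the kidney was harvested 7 days after surgery. SH045 (larixyl N-methylcarbamate) blocks TRPC6, a cation channel that lets calcium into cells. The only other section, labelled Vehicle, is given as an obstructed kidney of the same strain and day without the drug, and 659 of its 676 spots reached 1000 UMIs. RNA was captured from 10 µm frozen sections on Visium slides, where each barcoded spot can cover several cells, so a spot that is rich in proximal tubule RNA also holds RNA of its neighbours. With 1 section per treatment and spots that are not replicates, no test was possible. All intervals are 95% intervals. Those of levels and folds cover counting error only, and those of shares of spots (Clopper-Pearson) take spots as independent. A gene was called where the ratio of its levels, with 1 CPM (1 UMI in every 1000000 UMIs) added to each, reached 1.5. The section labelled Vehicle had almost no RNA of the injury genes Havcr1 (1.62 CPM) and Lcn2 (2.08 CPM) although its label gives obstruction, and it enters only the last comparison.

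The proximal tubule is the first segment of the nephron after the glomerulus and takes back most of the filtered water, sodium, phosphate, glucose, amino acids and proteins. Its convoluted part carries the phosphate and organic anion transporters used for the score, and its straight part carries another set of transporters and much of the drug metabolism. Its cells depend on mitochondrial fatty acid oxidation and make glucose, and after injury they are known to lose these genes and to switch on injury genes such as Havcr1 (kidney injury molecule 1) and Lcn2 (lipocalin 2).

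The threshold lay at 1606 UMIs of the 4 genes in every 1000000 UMIs. The 3 spots just inside it scored 1611, 1679.9 and 1692, and the 3 just outside scored 1603, 1576 and 1529, so the boundary cuts a continuous range. The median score was 2945 in preserved spots (range 1611 to 7961) and 337 in the remaining spots. As a description of the choice, in CPM of the counts summed over the spots of a group, the phosphate transporter gene Slc34a1 stood at 2310.3 CPM in preserved and 309.8 CPM in remaining spots. Miox, which starts inositol breakdown, stood at 943 against 106 CPM, and the organic anion transporter genes Slc22a6 and Slc22a8 at 388 against 44.6 CPM and 102 against 9.79 CPM. When each of the 4 was left out of the score in turn, the 79 spots chosen by the other genes shared 68 (without Slc34a1) or 78 (without each of the others) spots with the original choice. The gene left out was then 6.75-fold (Slc34a1, interval 6.52 to 6.99), 8.49-fold (Slc22a6, interval 7.77 to 9.28), 10.4-fold (Slc22a8, interval 8.66 to 12.5) or 8.89-fold (Miox, interval 8.39 to 9.41) higher in the chosen spots. Because most of these spots were also in the original choice, these folds describe the choice and are no separate check of it.

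The preserved spots lay in 21 separate patches on the hexagonal spot grid, mostly along the left and upper sides of the section. The largest patch had 21 spots and the second 11, 4 patches were single spots, and 19 patches held 5 spots or fewer. Counted in grid steps from the tissue edge, the median was 4 in both groups. Only 6 of 79 preserved spots (7.59%) lay more than 6 steps deep, against 188 of 709 remaining spots (26.5%). Of the remaining spots, 167 touched a preserved spot and 542 lay farther away. For a measure of spread within the section, the preserved spots were split by position into 4 sectors of 22, 19, 19 and 19 spots, and the same lines put 118, 21, 147 and 423 remaining spots in those sectors.

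**Figure D1:**
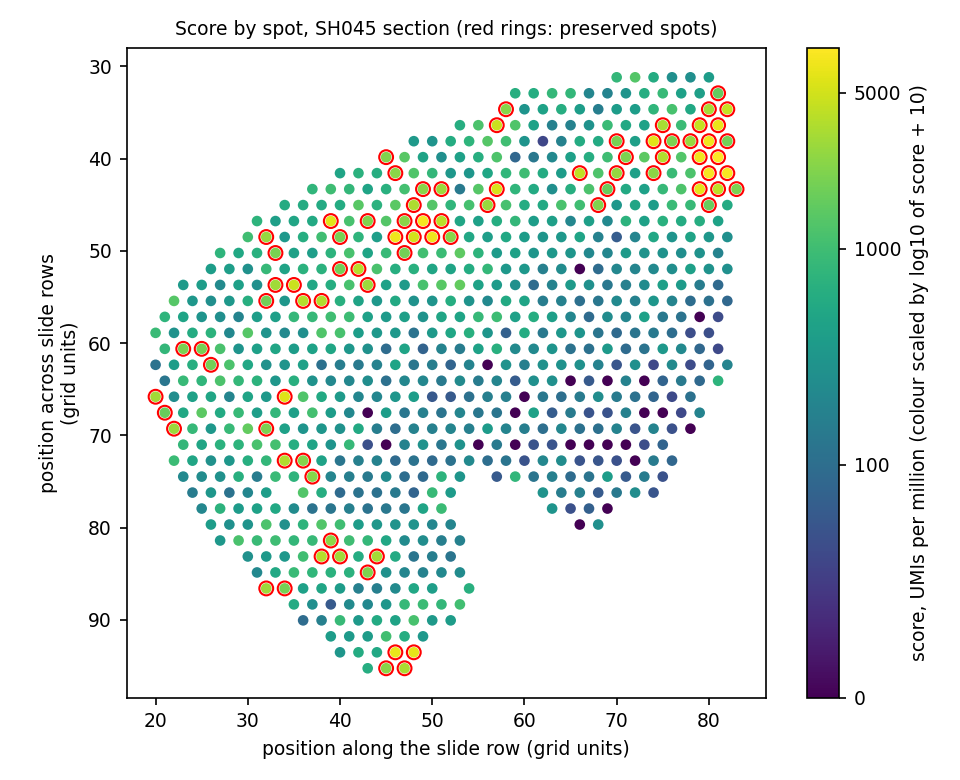
Positions of the 788 spots with at least 1000 UMIs in the SH045 section, in grid units along and across the slide rows, coloured by the score (UMIs of the 4 genes in 1000000 UMIs). Red rings mark the 79 preserved spots, which lie in 21 patches, the largest, with 21 spots, at the upper right.

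Preserved spots were deeper than the rest. The median was 39197 UMIs per preserved spot (range 2545 to 72340) and 26693 per remaining spot (range 4502 to 57423), 1.47 times as many, with 7388 and 6905 genes per spot. Mitochondrially encoded genes took a median of 6.46% of the UMIs in preserved and 3.34% in remaining spots. The 2 matrices share 335 spot barcodes, 4 of them among the preserved spots, and a barcode marks a slide position, not a cell. The part of depth and of the mitochondrial share in the differences given here was not tested.

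Of 10199 genes with at least 10 CPM over all 788 spots, the 4 genes of the score left out, 644 (6.31%) were higher in preserved spots and 2640 (25.9%) were lower. The median log2 ratio of all genes, with 1 CPM added to both levels, was −0.32, so that a typical gene took a smaller share of the UMIs in preserved spots. A median-of-ratios scaling, which sets the typical gene to about 0 (median 0.01), gave 1263 higher and 979 lower genes. The share of higher genes among those called was 19.6% with scaling to the total and 56.3% with median-of-ratios scaling. Of the 644 higher genes, 605 had the same direction in all 4 sectors, as had 2195 of the 2640 lower genes. Because UMIs of the same spots chose the members, these counts and the list counts that follow describe the chosen spots and support nothing further. In spots, fewer cells of a type and less RNA per cell cannot be told apart.

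The genes of highest ratio among well measured genes were transporters and enzymes of the proximal tubule, together with Dnase1. Dnase1, a secreted nuclease that cuts DNA (chr16:4036958-4040024 in mm10), was at 274 CPM in preserved and 32.0 CPM in remaining spots (8.55-fold, interval 7.70 to 9.50). In single preserved spots Dnase1 had a lowest, median and highest level of 0, 165 and 1091 CPM, and 74 of the 79 spots lay above the median of the remaining spots, which was 0. The others reported here were Slc13a3, Cyp4a14, Cyp4b1, Cyp2e1, Nat8f1, Gatm, Cyp4a10, Ass1, Slc22a12, Acsm2, Akr1c21, Slc5a2 and Acaa1b, with folds down to 4.67 (Akr1c21). Ass1, which makes argininosuccinate on the way to arginine, was at 525 CPM in preserved and 97.8 CPM in remaining spots (5.36-fold, interval 5.02 to 5.73), and 78 of 79 preserved spots were above the median of the remaining spots. Every one of these genes had the same direction in all 4 sectors and under both scalings, which the choice of these genes required. Cyp4a10 and Cyp4a14, like Nat8 and Nat8f1, belong to families of related genes. Their UMIs may be split with similar copies, so their single values are uncertain.

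**Figure D2:**
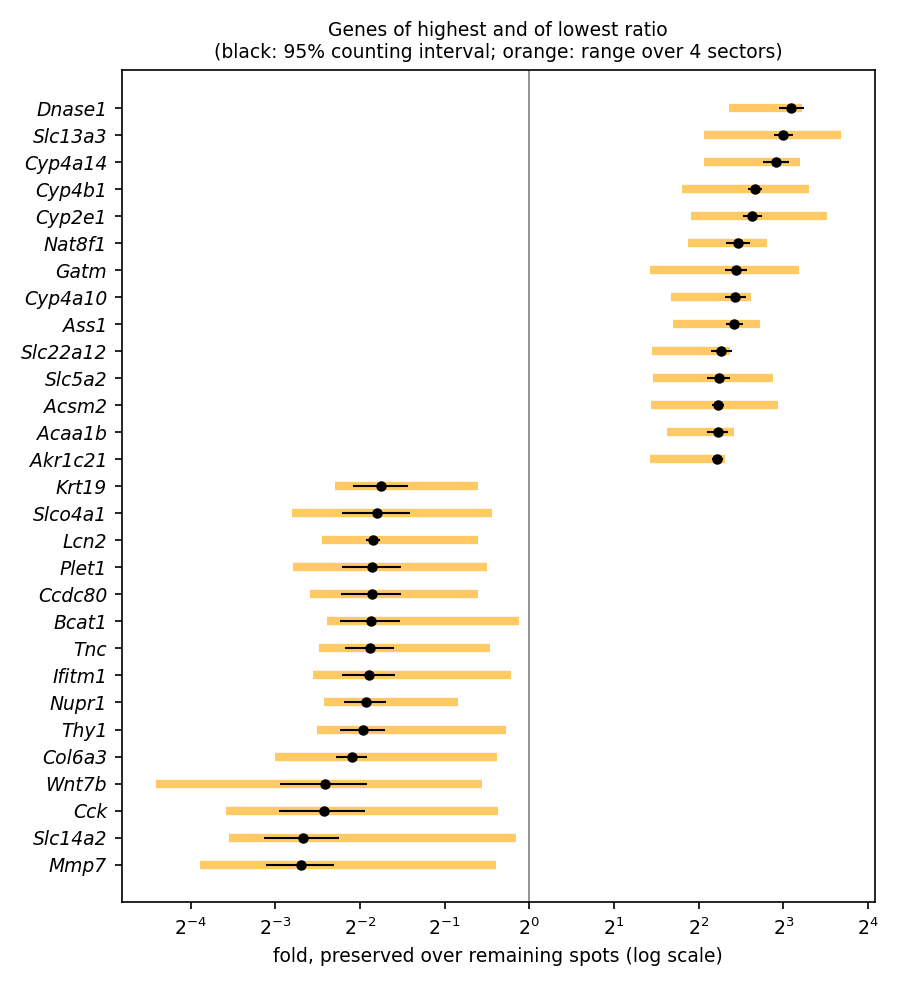
Fold of preserved over remaining spots (log scale) for the genes of highest ratio reported here and the 15 of lowest ratio. Points are folds of summed counts, black bars 95% counting intervals, and orange bars the range over the 4 sectors, which is wider than the counting interval for every gene drawn; Dnase1 stands highest at 8.55-fold and Mmp7 lowest.

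Organic ion transporters, which carry drugs, urate and metabolic waste between blood and urine, stood higher as a group. Of 16 measured members, 13 were higher and none lower, with a median log2 ratio of 1.32 (sectors 0.95 to 1.59). The urate transporter gene Slc22a12 was at 325 CPM in preserved and 67.3 CPM in remaining spots (4.82-fold, interval 4.44 to 5.24), and the anion transporter gene Slco1a6 at 109.7 against 21.3 CPM. Among cation carriers, Slc22a2 was at 108 against 42.6 CPM and the luminal exporter gene Slc47a1 at 197 against 75.5 CPM. The luminal efflux pump genes Abcg2 and Abcc2 were at 358 against 168 CPM and 128 against 51.1 CPM. Slc17a1 and Slc17a3, anion carriers of the brush border, were 2.65-fold and 2.99-fold higher, and the carnitine carrier gene Slc22a5 2.54-fold. The 3 members that did not reach 1.5-fold were Slc22a4, an ergothioneine carrier, at 22.7 against 18.9 CPM, Slco3a1 at 89.9 against 102 CPM, and Abcc4, an efflux pump, at 34.1 against 48.9 CPM.

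Carriers of phosphate, sugar, sodium and acid moved less evenly, with 15 of 25 measured members higher and 1 lower (median log2 ratio 0.66, sectors 0.47 to 1.13). Slc13a3 (chr2:165405295-165473197), which takes up dicarboxylates such as succinate from the blood side, led with 508 CPM in preserved and 63.4 CPM in remaining spots (8.01-fold, interval 7.43 to 8.64). Its lowest, median and highest levels were 0, 405 and 1636 CPM in preserved spots and 0, 37.7 and 614 CPM in remaining spots, so the ranges overlap while 76 of 79 preserved spots lay above the median of the rest. The glucose pair of the convoluted segment, the luminal transporter gene Slc5a2 and the basal Slc2a2, were at 242 against 51.4 CPM and 104 against 33.7 CPM. The straight segment's high-affinity glucose transporter gene Slc5a1 was at 55.5 against 42.8 CPM, below 1.5-fold. Bicarbonate handling genes were higher, with the basolateral cotransporter gene Slc4a4 at 349 against 126 CPM and the membrane carbonic anhydrase gene Car4 at 102 against 27.2 CPM. The luminal sodium-proton exchanger gene Slc9a3 was at 45.5 against 30.3 CPM, just under the limit for a call. Pdzk1, a scaffold of brush border transporters, was at 492 against 198 CPM, and its relative Slc9a3r1, which anchors the phosphate transporter, at 299 against 205 CPM. The hormone arm of phosphate control differed within itself. The parathyroid hormone receptor gene Pth1r was at 518 against 344 CPM and the FGF23 co-receptor gene Kl at 174 against 82.1 CPM, while Fgfr1, the receptor that works with it, was the 1 lower member at 33.8 against 63.8 CPM. The sodium pump regulator gene Fxyd2 was at 4243 against 2448 CPM, and the water channel gene Aqp1 was at 396 against 335 CPM.

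Amino acid transporters followed the same pattern, with 11 of 16 measured members higher and none lower (median log2 ratio 0.86, sectors 0.54 to 1.04). Slc6a19, the main luminal transporter gene for neutral amino acids, was at 87.0 CPM in preserved and 12.2 CPM in remaining spots (7.15-fold, interval 5.98 to 8.56), and Cltrn (collectrin), the partner that brings it to the membrane, at 1838 CPM in preserved and 465 CPM in remaining spots (3.95-fold, interval 3.82 to 4.09). All 79 preserved spots exceeded the median of the remaining spots in Cltrn, with a lowest, median and highest level of 539, 1645 and 4388 CPM. The cystine transporter subunits Slc7a9 and Slc3a1 were at 87.3 against 34.3 CPM and 304 against 162 CPM, the cationic amino acid exporter gene Slc7a7 at 163 against 55.8 CPM, and the glutamate carrier gene Slc1a1 at 126 against 78.4 CPM. The other 5 members were below 1.5-fold. These were Slc7a8, Slc38a3, Slc15a2, Slc3a2 and Slc6a6, a taurine carrier at 220.5 against 209 CPM.

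Protein reabsorption by endocytosis gave a split list, with 5 of 10 members higher and 1 lower (median log2 ratio 0.49). The lower member is not reported here. The receptor complex itself was higher. Megalin (Lrp2) was at 623 CPM in preserved and 180.3 CPM in remaining spots (3.46-fold, interval 3.27 to 3.65), cubilin (Cubn) at 189.6 against 73.3 CPM, its membrane anchor Amn at 149.7 against 74.2 CPM, the megalin chaperone Lrpap1 at 325 against 173 CPM and the adaptor Dab2 at 299.7 against 170.3 CPM. The other members reported here did not reach a call in either direction. The chloride transport gene Clcn5 was at 62.7 against 55.8 CPM and the lipid phosphatase gene Ocrl at 14.6 against 19.6 CPM. The recycling genes Ehd1 and Rab11a were at 112 against 102 CPM and 217 against 243 CPM. Of the 17 measured brush border genes, 8 were higher and none lower (median log2 ratio 0.49), and 12 were higher with median-of-ratios scaling. The glutathione-cleaving enzyme gene Ggt1 was at 588 against 250.5 CPM, the protease gene Mep1a at 883 against 484 CPM and trehalase (Treh) at 51.3 against 18.4 CPM. Ezrin (Ezr), a linker of membrane and actin, was at 339 against 392 CPM and the protease gene Mme at 84.4 against 112 CPM.

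Enzymes of the proximal tubule differed widely between preserved and remaining spots. All 13 measured genes of glucose, fructose and creatine synthesis were higher (median log2 ratio 1.62, sectors 1.25 to 1.94). Gatm, the first enzyme of creatine synthesis, was at 296 CPM in preserved and 54.3 CPM in remaining spots (5.45-fold, interval 4.98 to 5.96). In single spots its lowest, median and highest levels were 0, 209 and 1463 CPM in preserved and 0, 40.6 and 666 CPM in remaining spots, so the ranges overlap, and 68 of 79 preserved spots lay above the median of the rest. The aldehyde reductase gene Akr1a1 was at 1395 against 701 CPM, and the sorbitol dehydrogenase gene Sord at 576 against 159 CPM. The gluconeogenic enzyme genes Pck1 and Fbp1, named after their values were seen, were at 266 against 69.1 CPM and 449 against 120.3 CPM. Breakdown of amino acids, NAD precursors and purines gave 17 of 24 members higher and 1 lower (median log2 ratio 1.14). The aminoacylase gene Acy3 was at 838 against 304 CPM and the hydroxy acid oxidase gene Hao2 at 503 against 171 CPM. Glutamate dehydrogenase (Glud1) was 1.12-fold of the rest, and the lower member was Nmnat1, a nuclear NAD synthesis enzyme, at 8.77 against 14.6 CPM.

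Drug-metabolising and conjugating enzymes had the highest list median, 1.79 (sectors 1.22 to 1.98), with 22 of 26 measured members higher and none lower. The cytochrome P450 genes Cyp2e1 and Cyp2j5 were at 414 against 66.7 CPM and 598 against 260.1 CPM, and Cyp2d26 at 51.0 against 4.82 CPM, a 10.6-fold difference (interval 8.14 to 13.8) at a low level. The fatty acid hydroxylases Cyp4a10 and Cyp4a14 were at 319 against 59.1 CPM and 255 against 33.9 CPM. Acsm2, which activates medium-chain acids for conjugation with glycine, was at 925 CPM in preserved and 198 CPM in remaining spots, and the steroid reductase gene Akr1c21 at 948 against 203 CPM. The 4 members without a call were Gstm1, a glutathione transferase, at 486 against 449 CPM, Gstt1, Cyp24a1 and Acsm3 at 58.1 against 75.6 CPM. Over the 8 carrier and enzyme lists together, 104 of 147 measured genes were higher and 3 lower (median log2 ratio 1.09, sectors 0.78 to 1.44).

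**Figure D3:**
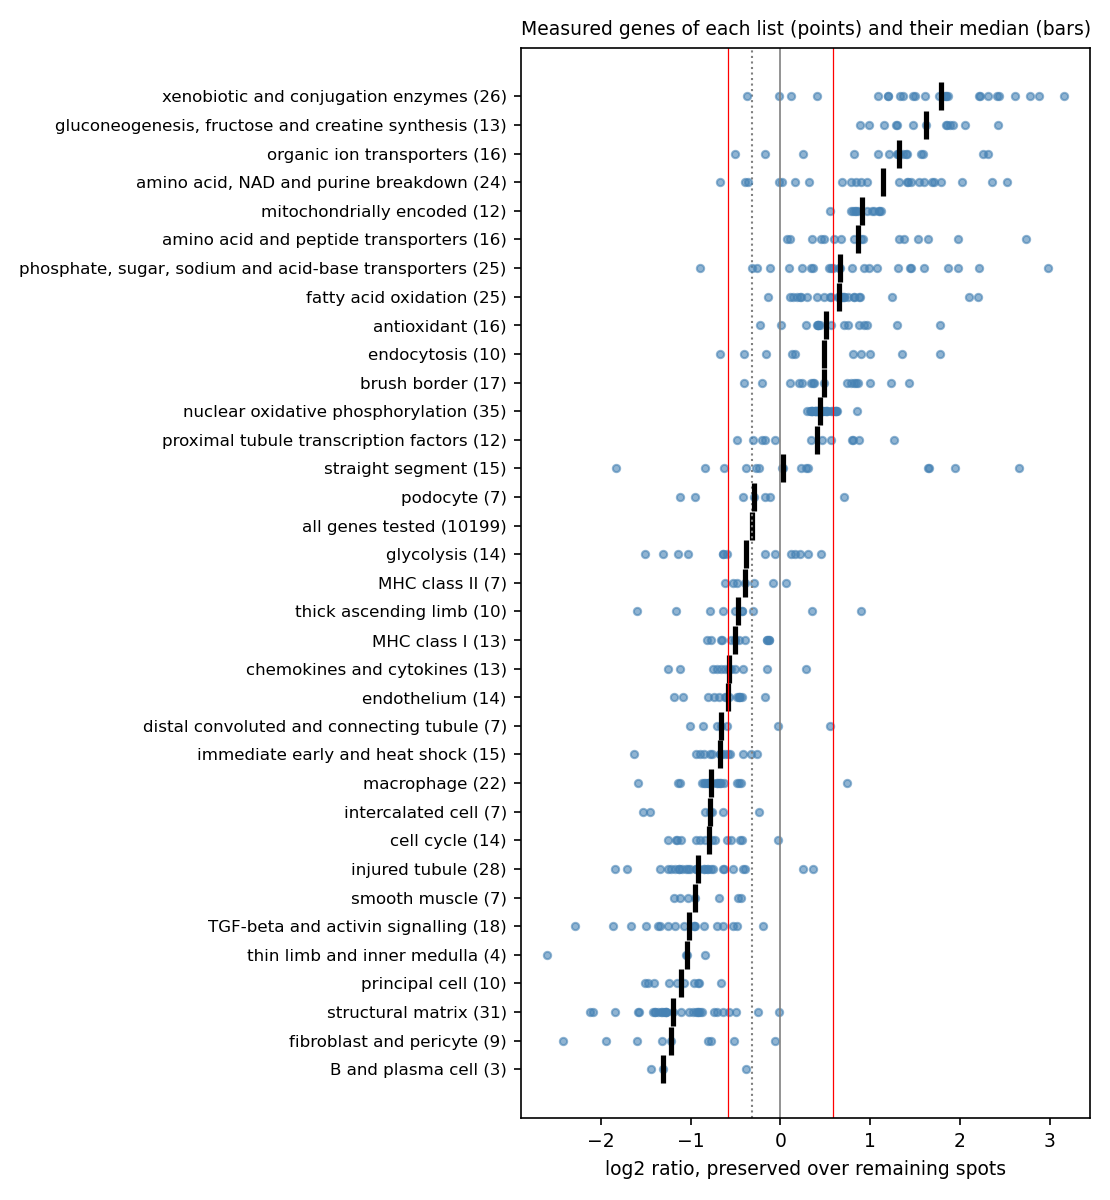
Log2 ratio of preserved over remaining spots for the measured genes of each list (points) and the list median (black bars), with the number of genes in brackets. Red lines mark 1.5-fold in either direction and the dotted line the median of all 10199 genes, −0.32; the lists of proximal enzymes and carriers lie at the top, matrix and stromal lists at the bottom.

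The regulators of this programme differed less than its genes. Of 12 measured transcription factor genes 4 were higher and none lower (median log2 ratio 0.40, sectors −0.03 to 0.44), and 7 were higher with median-of-ratios scaling. Hnf4a, a nuclear receptor needed for proximal tubule maturation (chr2:163506811-163572907), was at 236 CPM in preserved and 97.4 CPM in remaining spots (2.42-fold, interval 2.22 to 2.64), with a lowest, median and highest level of 35.5, 219 and 603 CPM in preserved spots. Among the other higher genes, the bile acid receptor gene Nr1h4 was at 61.7 against 34.7 CPM and the sugar-responsive factor gene Mlxipl at 56.8 against 30.6 CPM. The mitochondrial co-activator gene Ppargc1a was at 14.9 against 18.7 CPM.

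Because Hnf4a was among the higher regulators and the factor binds near start sites, the promoters of the 50 genes of highest ratio with at least 50 CPM were searched for the HNF4 word CAAAGTCCA on both strands. RefSeq windows of GRCm38.p6 from 250 bases before to 50 after the start were found for 35 of the 50 genes, 43 windows in all. The word stood in 1 of these windows (2.33%), in 0.430% of the 10467 windows of all genes tested and in 0.475% of all 32851 windows given. None of the 45 windows of the 50 lowest genes held it. Another word was also searched, and its result is not reported here. The window with the word is printed because it belongs to an enzyme of the highest list, Nat8, named after its values were seen (chr6:85832230-85832529, minus strand). Nat8, an acetyltransferase of conjugation, was at 182 against 49.8 CPM. The word, in capitals, stands in its reverse orientation from base 3 after the start. A word match is a description of the sequence, not a binding site, and the share rests on 1 window.
Nat8: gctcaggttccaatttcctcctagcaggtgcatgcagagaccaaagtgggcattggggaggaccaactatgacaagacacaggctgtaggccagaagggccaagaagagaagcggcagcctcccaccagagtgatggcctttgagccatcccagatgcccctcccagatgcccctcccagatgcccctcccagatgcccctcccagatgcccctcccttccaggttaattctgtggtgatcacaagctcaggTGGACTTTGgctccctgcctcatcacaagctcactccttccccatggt

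Genes of the straight segment were mixed in the preserved spots, which bears on the name convoluted. Of 15 measured members 4 were higher and 3 lower (6 and 1 with median-of-ratios scaling), with a median log2 ratio of 0.03. Kap, an androgen-regulated protein gene of the proximal tubule (chr6:133849855-133853667), was at 30117 CPM in preserved and 9581 CPM in remaining spots (3.14-fold, interval 3.12 to 3.17), Cyp4b1 at 798 against 125 CPM, and the amino acid transporter gene Slc7a13 at 175 against 55.1 CPM. The anion transporter gene Slc22a30, named after its values were seen, was at 57.1 against 14.0 CPM. The other markers of the straight segment, Slc22a7 and Slc22a19, were at 15.3 against 18.2 CPM and 25.7 against 20.5 CPM, and Napsa and Atp11a at 1195 against 979 CPM and 526 against 518 CPM. The lower members were Bcat1, a branched-chain aminotransferase gene, at 22.7 against 83.3 CPM, and, named after their values were seen, Slc7a12 at 6.82 against 11.1 CPM and Serpina1f at 112 against 201 CPM, whose paralogs may share its UMIs. Against the 521 remaining spots at 1 to 6 steps from the tissue edge, the range of the middle 80% of preserved spots, the median of the list was 0.86. Among preserved spots, 16 of 79 (20.3%, Clopper-Pearson interval 12.0 to 30.8%) were also in the top 10% of spots by the summed straight segment markers Slc7a13, Slc22a7 and Slc22a19, where 10.0% of all spots are. This interval takes spots as independent, which neighbouring spots of a patch are not, so it cannot decide whether the share differs from 10.0%. In part, the chosen spots held convoluted and straight segment RNA together.

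Mitochondrial genes stood higher in preserved spots, most of all those encoded in the mitochondrion itself. Of 12 measured mitochondrially encoded genes 11 were higher (median log2 ratio 0.91, sectors 0.61 to 1.05), and their summed level was 67844 against 38382 CPM. mt-Cytb, a subunit of respiratory complex III, was at 9237 against 4256 CPM, and mt-Co1, of complex IV and the 1 gene below 1.5-fold, at 12646 against 8610.4 CPM. Respiratory chain genes of the nucleus had smaller ratios. Of 35 measured 6 were higher and none lower (median log2 ratio 0.44), but all 35 were higher with median-of-ratios scaling. They ran from Cox6b1 at 854 against 697 CPM to the succinate dehydrogenase gene Sdhb at 251 against 139 CPM. In fatty acid oxidation 14 of 25 members were higher and none lower (median log2 ratio 0.66, sectors 0.42 to 0.68). The peroxisomal enzymes led, with Acaa1b at 293 against 62.7 CPM and Ehhadh, named after its values were seen, at 139 against 31.6 CPM. The mitochondrial genes Acadm and Acadl were at 298 against 183 CPM and 228 against 186 CPM, and the carnitine shuttle gene Slc25a20 at 26.6 against 29.4 CPM.

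Glycolysis genes did not move as 1 group. None of 14 was higher and 7 were lower, 2 and 4 with median-of-ratios scaling (median log2 ratio −0.38), and the median was −0.05 with median-of-ratios scaling. Shared steps of glycolysis and gluconeogenesis were level or slightly higher, with Gapdh at 2129 against 1715 CPM and Tpi1 at 696 against 509 CPM. Hk2, an inducible hexokinase, was the lowest at 4.87 against 15.7 CPM. The other lower members, named after their values were seen, were the entry genes Slc2a1, Hk1, Pfkp, Pfkl and Pfkfb3 and the pyruvate kinase gene Pkm, which was at 156 CPM in preserved and 385 CPM in remaining spots (2.48-fold lower, interval 2.26 to 2.72). In Pkm 76 of 79 preserved spots lay under the median of the remaining spots. Lactate dehydrogenase genes Ldha and Ldhb were at 676 against 624 CPM and 1876 against 2113 CPM.

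Of the 16 antioxidant genes 7 were higher, 14 with median-of-ratios scaling, and none lower (median log2 ratio 0.51, sectors 0.39 to 0.64). Gpx3, the secreted glutathione peroxidase of plasma that the proximal tubule makes (chr11:54902854-54910387), was among the most abundant genes at 25644 CPM in preserved and 7460.2 CPM in remaining spots (3.44-fold, interval 3.41 to 3.47). Its lowest, median and highest levels were 9084, 22343 and 57923 CPM in preserved and 514, 5655 and 34915 CPM in remaining spots, and all 79 preserved spots lay above the median of the remaining spots. Gpx1, its intracellular relative, was at 3288 against 1682 CPM. Gpx4, which guards membranes against lipid peroxides, was at 1561 against 1145 CPM, and Gclc, the enzyme that limits glutathione synthesis, at 114 against 133 CPM.

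**Figure D4:**
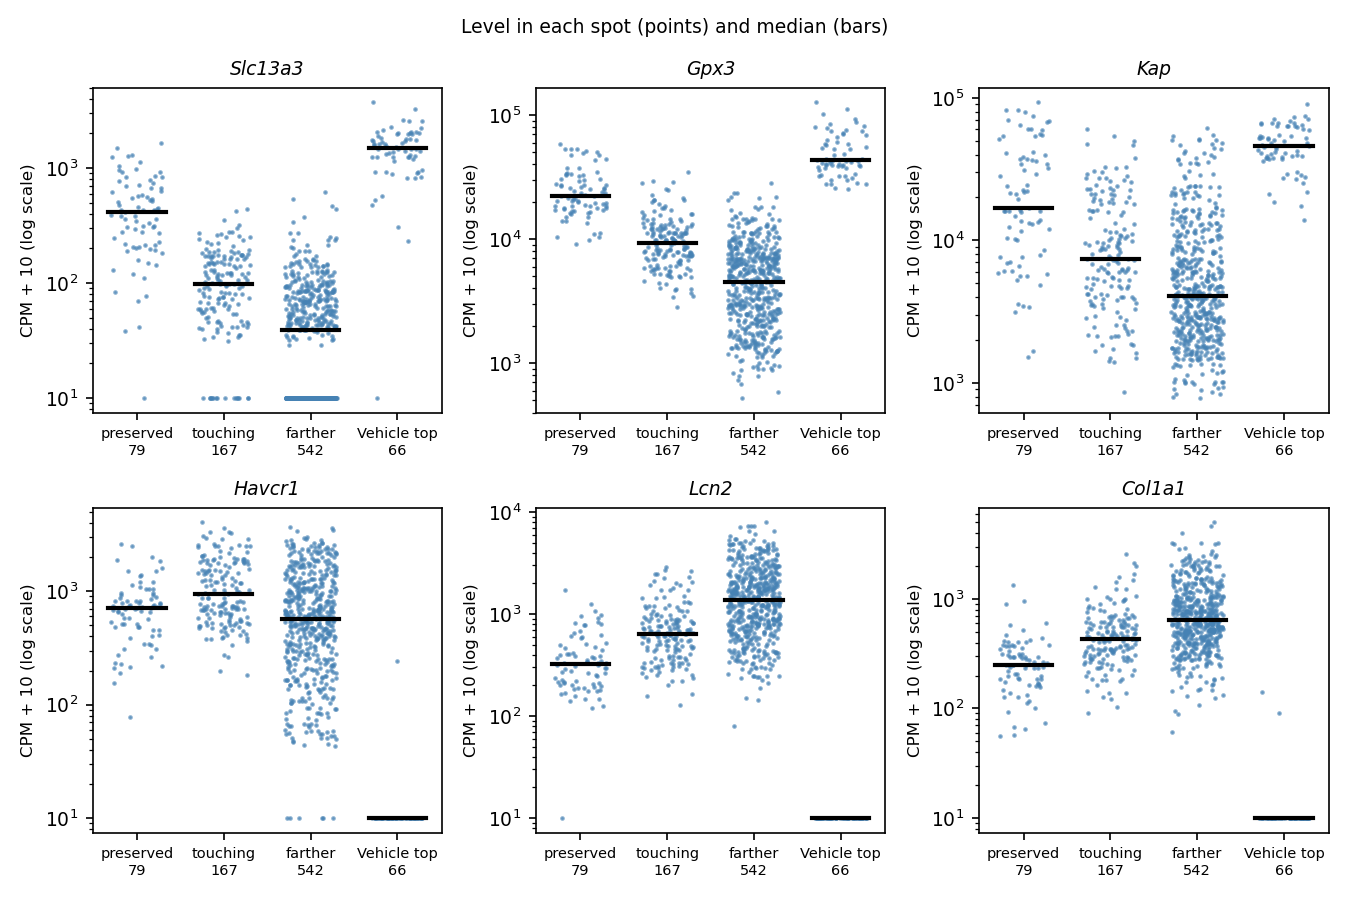
Level of 6 genes in each spot, as CPM + 10 on a log scale, for preserved spots, spots that touch them, spots farther away and the 66 spots of the section labelled Vehicle with the highest score. Bars are medians; the medians of Slc13a3 and Gpx3 are higher in preserved than in touching spots with overlapping ranges, Havcr1 overlaps in all 3 groups of the SH045 section, and Lcn2 and Col1a1 step up with distance.

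Injury genes of the tubule were lower in preserved spots but far from absent. Of 28 measured members, 23 were lower and none higher (median log2 ratio −0.92, sectors −1.11 to −0.58), and 14 were lower and 1 higher with median-of-ratios scaling. Their summed level was 18381 CPM against 34920 CPM. Most of both sums came from Spp1 and Clu, so sums of this list mainly follow these genes. Lcn2 (chr2:32384637-32387739), a secreted iron-siderophore carrier, was at 380.2 CPM in preserved and 1369 CPM in remaining spots (3.60-fold lower, interval 3.39 to 3.82). Its lowest, median and highest levels were 0, 311 and 1714 CPM in preserved and 69.4, 1077 and 7917 CPM in remaining spots, and 77 of 79 preserved spots lay under the median of the remaining spots. The secreted proteins osteopontin (Spp1) and clusterin (Clu) were at 10111 against 18187 CPM and 2986 against 6928 CPM, and the calcium-binding protein gene S100a11 at 805 against 1253 CPM. Krt19, a keratin of simple epithelium, was at 27.0 against 90.4 CPM.

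Havcr1 (chr11:46739822-46779578), a receptor by which injured proximal cells take up dead cells, did not reach a call. It was at 778 CPM in preserved and 1027 CPM in remaining spots, 1.32-fold lower, interval 1.26 to 1.38, and the levels per spot were 30.3 UMIs in preserved and 28.0 UMIs in remaining spots. Its lowest, median and highest levels were 68.5, 708 and 2577 CPM in preserved and 0, 646 and 4051 CPM in remaining spots. Of the 79 preserved spots, 47 lay above the median of the remaining spots and 32 below it, so the groups overlapped almost fully. The top 10% of spots for Havcr1 held 3 preserved spots (3.80%, Clopper-Pearson interval 0.790 to 10.7%), and 10.0% of all spots lay in it. No preserved spot was in the top 10% for Lcn2 or for the fibrillar collagen genes Col1a1 and Col3a1 (Clopper-Pearson upper limit 4.56%). These intervals take spots as independent, which neighbouring spots of a patch are not, so they cannot decide whether a share differs from 10.0%. The other 4 members of the injury list without a call were the integrin genes Itgb6 at 235 against 183 CPM and, named after their values were seen, Itgb8 at 78.6 against 66.0 CPM, the cytokine gene Il34 at 83.1 against 111 CPM and the cadherin gene Cdh6 at 12.0 against 17.8 CPM.

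When the 788 spots were put into 10 score groups of 78 or 79 spots, group 10 being the preserved spots, Havcr1 and Lcn2 ran differently along the order. Havcr1 was at 345 CPM in group 1, 1108 in group 5, 1358 in group 9 and 778 in the preserved spots, so its highest level lay just under the threshold. Lcn2 went from 3195 CPM in group 1 through 908 and 645 to 380.2. The summed injury list, mainly Spp1 and Clu, stayed between 31053 and 38628 CPM over groups 1 to 9. It was 18381 CPM in the preserved spots. The xenobiotic enzymes went from 937 through 3996 to 7528 CPM, and Slc13a3 from 17.6 through 146 to 508. For these lists and for Slc13a3 the step from group 9 to the preserved spots was large beside the steps between the middle groups. Napsa and Atp11a, in contrast, were highest in group 6. The score orders these groups, so the trends are a description.

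**Figure D5:**
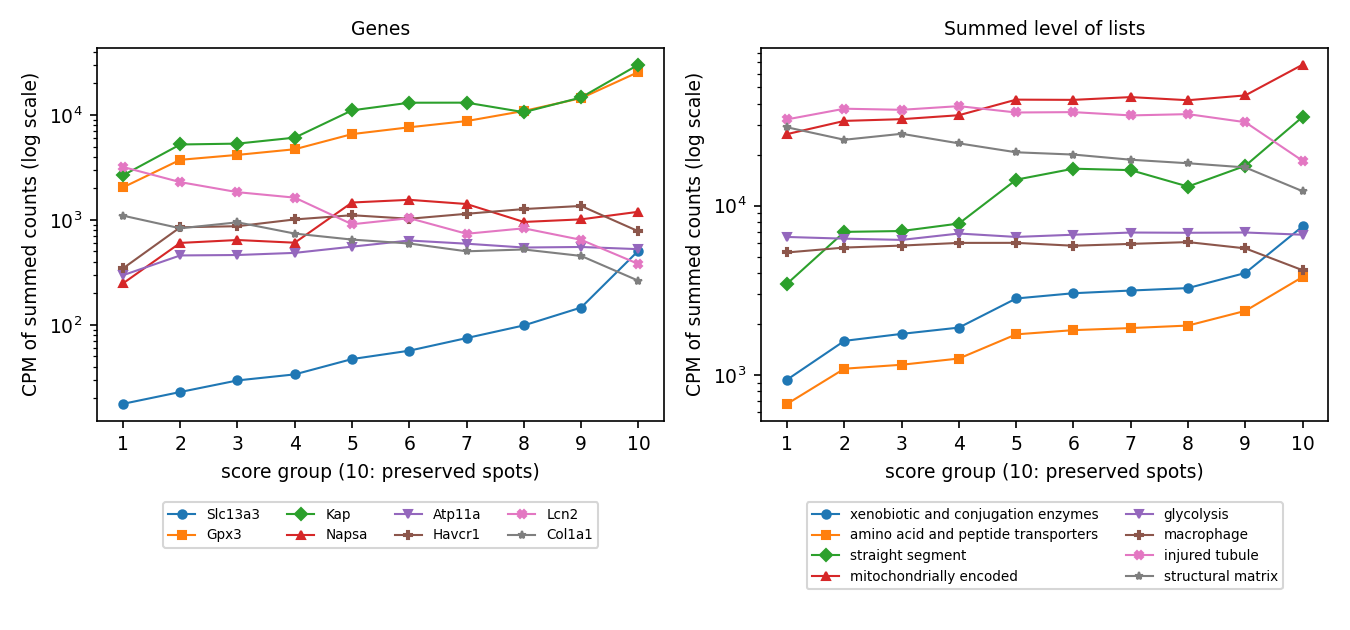
CPM of summed counts (log scale) of 8 genes and 8 lists over 10 score groups, group 10 being the preserved spots. Slc13a3 and the xenobiotic enzymes are highest in group 10, Havcr1 is highest in group 9 at 1358 CPM, and Lcn2 and the structural matrix list are lowest in group 10.

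Levels also changed with distance from the preserved spots. Slc13a3 was at 508 CPM in preserved spots, 105 in the touching spots, 66.8 at 2 grid steps and 22.2 at 5 steps or more. Gpx3 followed with 25644, 10693, 8536 and 2438 CPM. Most of the difference in these genes therefore lay within 1 step. Touching spots are below the score threshold by definition, so this drop describes the choice of spots. Havcr1 was at 1263 CPM in the touching spots, 1119.7 at 4 steps and 313 at 5 steps or more, so it was high from 1 to 4 steps and low farther away. Lcn2 stood at 765 CPM in touching spots and at 2772 at 5 steps or more. The injury list sum was 33262 CPM in the touching spots and 34352 CPM in the farthest. Medullary tissue lies far from the preserved spots, as Umod shows with 2974 CPM in touching spots and 5688 CPM at 5 steps or more, so distance and kidney zone cannot be told apart.

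Matrix genes were lower in preserved spots in nearly the whole list. Of 31 measured genes 27 were lower and none higher (median log2 ratio −1.20, sectors −1.46 to −0.55), and against the touching spots alone the median was −0.69. Col1a1, a chain of fibrillar collagen, was at 263 CPM in preserved and 680.1 CPM in remaining spots (2.59-fold lower, interval 2.41 to 2.78), and 75 of 79 preserved spots lay under the median of the remaining spots. Col6a3 and the matricellular genes Tnc and Vcan were at 84.1 against 359.9 CPM, 33.8 against 124 CPM and 6.17 against 30.2 CPM. The calcification inhibitor gene Mgp was at 2949.6 against 5419 CPM. The 4 genes without a call were Igfbp7, which binds growth factors, at 3139 against 3738 CPM, Fbln5, an elastic fibre gene, at 238 against 240.1 CPM, and, named after their values were seen, Col14a1 and Col18a1 at 55.5 against 78.5 CPM and 490.0 against 730.2 CPM. Of 18 genes of TGF-beta and activin signalling, the main profibrotic pathway, 15 were lower and none higher. The activin subunit gene Inhba was at 10.4 against 54.8 CPM, the response genes Ccn1 and Ccn2 at 406 against 465 CPM and 371 against 718 CPM, and the receptor genes Tgfbr1 and Tgfbr2 at 72.4 against 142 CPM and 138 against 215 CPM.

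The 15 genes of lowest ratio were Mmp7, Slc14a2, Cck, Wnt7b, Col6a3, Thy1, Nupr1, Ifitm1, Tnc, Lcn2, Bcat1, Plet1, Ccdc80, Slco4a1 and Krt19. Mmp7, a secreted protease of injured epithelium, was at 17.5 CPM in preserved and 114 CPM in remaining spots (6.49-fold lower, interval 4.95 to 8.66), and 46 of 79 preserved spots had no UMI of it. Slc14a2, a urea transporter gene of the inner medulla, was at 14.6 against 93.5 CPM, and the collecting duct ligand gene Wnt7b 5.32-fold lower, interval 3.78 to 7.71. Their size differed between sectors. The log2 ratio ran from −3.89 to −0.39 over the 4 sectors in Mmp7, from −3.54 to −0.16 in Slc14a2 and from −2.39 to −0.12 in Bcat1. The remaining spots of the sectors hold different kidney zones, and the part of these zones in the ratios was not tested.

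Markers of other cell types were mostly at lower levels in preserved spots. Of the 9 fibroblast and pericyte genes 7 were lower, with the fibroblast receptor gene Pdgfra at 37.0 against 93.7 CPM and Thy1 at 40.6 against 159 CPM. Of 7 smooth muscle genes 5 were lower, with Acta2, the actin of contractile cells, at 193 against 439.9 CPM. Macrophage genes were lower in 18 of 22 and higher in 1 (median log2 ratio −0.77), but with median-of-ratios scaling only 3 were lower and 1 higher. Over the 4 sectors the summed level of the list ran from 3519 to 5187 CPM in preserved and from 4622 to 6464 CPM in remaining spots, and the part of these cells in the other differences was not tested. The complement genes C1qa and C1qb were at 228 against 374 CPM and 279.9 against 486 CPM, the growth factor receptor gene Csf1r at 66.9 against 122 CPM, and the lipid carrier gene Apoe at 1476 against 2276 CPM. The higher member was the lysosomal protease gene Lgmn at 935 CPM in preserved and 558 CPM in remaining spots, which the kidney tubule also expresses. Against all remaining spots together, antigen presentation differed little. Of 7 MHC class II genes 1 (Ciita) was lower and of 13 class I genes 4, and none of either with median-of-ratios scaling. Cd74 was at 1443 against 1890.2 CPM. The remaining spots differed among themselves. The summed class II list was at 3429 CPM in preserved spots, 5226 in touching spots and 2563 at 5 steps or more. The class I list was at 2895, 4109 and 2570 CPM. Both lists were thus lower in preserved than in touching spots. Of 13 chemokine and cytokine genes 6 were lower (2 lower and 1 higher with median-of-ratios scaling), Cx3cl1 among them at 248 against 380.4 CPM. The plasma cell genes Igkc and Jchain were at 452 against 1233 CPM and 81.2 against 202 CPM, and no T cell, NK cell or neutrophil gene reached 10 CPM.

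Markers of other tubule segments were present in preserved spots, mostly at lower levels. All 10 principal cell genes were lower, with the water channel gene Aqp2 at 64.0 against 184 CPM, and 6 of 7 intercalated cell genes (2 with median-of-ratios scaling), with the proton pump gene Atp6v1g3 at 59.4 against 107 CPM. In the thick ascending limb 4 of 10 genes were lower and 1 was higher (2 and 2 with median-of-ratios scaling). Umod was at 2076 against 3581 CPM and Slc12a1 at 164 against 222 CPM, and the higher gene was Egf at 64.0 against 33.8 CPM. Of 7 distal convoluted and connecting tubule genes 5 were lower (1, and 1 higher, with median-of-ratios scaling), with the sodium chloride carrier gene Slc12a3 at 84.1 against 138 CPM and Calb1 at 19.2 against 31.0 CPM, and Pvalb had no UMI in preserved spots. Podocyte genes were near the rest, with 1 of 7 higher and 2 lower, a median of −0.30 that was 0.03 with median-of-ratios scaling, and Nphs1, a slit diaphragm gene, at 4.22 against 4.04 CPM. Endothelial genes were lower in 7 of 14 (2 with median-of-ratios scaling), with Pecam1 at 44.5 against 78.8 CPM and Kdr at 23.7 against 26.8 CPM. The pelvic markers Krt5, Krt14 and Upk1b were at 1.62, 1.62 and 0.649 CPM in preserved spots, from 5, 5 and 2 UMIs, and at 3.83, 8.24 and 2.38 CPM in remaining spots. Renin (Ren1) was at 425 against 135 CPM, but 750 of its 1310 UMIs (57.3%) came from 1 preserved spot, and without that spot it was at 184 CPM.

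With scaling to the total, where 25.9% of all genes were lower, most stress and division genes were lower. With median-of-ratios scaling, where 9.60% of all genes were lower, fewer of them were. Among 15 early response and heat shock genes, 10 stood lower, against 2 with median-of-ratios scaling, with Jun at 126 against 186 CPM and Fosb at 9.09 against 30.1 CPM. The cell cycle list had 10 of 14 genes lower, against 5 with median-of-ratios scaling, with the proliferation marker gene Mki67 at 9.42 against 23.8 CPM and Ccnd1 at 163 against 166 CPM. Of the TRPC channel genes, only Trpc1 reached 10 CPM, with 56 UMIs in preserved and 328 in remaining spots (1.07-fold, interval 0.791 to 1.42). Trpc6, the target of SH045, had 1 UMI in the preserved spots and 37 in the remaining spots, a ratio of remaining over preserved spots of 5.90 (interval 0.996 to 239), so a difference was not detectable at this depth.

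The preserved spots were not alike. In the largest patch of 21 spots the injury list summed to 12525 CPM, in the second patch of 11 spots to 18490 CPM and in the 47 spots of the other 19 patches to 21729.6 CPM. The same order held for Lcn2, at 235, 374 and 465 CPM. Havcr1 was at 634 and 630.0 CPM in the 2 largest patches and at 896 CPM in the others. The xenobiotic enzymes ran the other way, with 9270.0, 8094 and 6392 CPM, as did Kap with 42597, 33286 and 22190.5 CPM. The summed matrix list differed little, from 10718 to 12759 CPM, but single matrix genes differed more. Col1a1 was at 191, 218 and 315 CPM in the largest, second and other patches, in the order of the injury list. Col3a1 was at 376, 321 and 466 CPM. The TGF-beta and activin list summed to 1067, 1194 and 1625 CPM. Gpx3 stayed between 25370.4 and 26483 CPM. The median depth was 47512 UMIs per spot in the largest patch and 36065 and 35862 in the others, and the median score 4099, 3539 and 2750, so that the part of depth in the order was not tested.

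Against the section labelled Vehicle, the preserved spots were low in the score. Of its 659 spots, 641 (97.3%, Clopper-Pearson interval 95.7 to 98.4%) reached the SH045 threshold. Its median score was 8326 UMIs in 1000000, and no preserved spot reached that median. Preserved therefore refers to the SH045 section alone. Of the 10199 genes, 3799 (37.2%) were at least 1.5-fold higher in the preserved spots than in all 659 spots of that section and 731 (7.17%) at least 1.5-fold lower, with a median log2 ratio of 0.37. The sections come from different mice and differ in depth, with a median of 5067 UMIs per spot in the section labelled Vehicle, so treatment, animal and library cannot be told apart.

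Carrier and enzyme genes of the preserved spots were near their level in that section about as often as all genes, and more often below it. Of 147 measured genes 86 were within 1.5-fold, 21 above and 40 (27.2%) below it (median log2 ratio −0.24). Of all 10199 genes 5669 were within 1.5-fold and 731 (7.17%) below (median 0.37). In the remaining spots 18 of the 147 genes were above and 102 below (median −1.24). Over all 10199 genes, 5639 (55.3%) were above and 1089 (10.7%) below in the remaining spots (median 0.70). Slc4a4 was at 349 CPM in preserved spots and 236 CPM in the section labelled Vehicle, Hnf4a at 236 and 264, Cltrn at 1838 and 1834, and Slc5a2 at 242 and 246. Slc13a3 was lower, at 508 and 916 CPM, as were Nat8f1 at 248 and 902 and Slc34a1 of the score at 2310.3 and 4407. The sulfate carrier gene Slc13a1 was higher at 832 and 234 CPM. The injury list behaved otherwise, with 26 of 28 genes above the section labelled Vehicle and none below. Havcr1 was at 778 and 1.62 CPM, Lcn2 at 380.2 and 2.08, and Spp1 at 10111 and 755. All 31 matrix genes were above it, with Col1a1 at 263 and 9.27 CPM, and all 18 genes of TGF-beta and activin signalling. Of the mitochondrial genes 8 of 12 encoded in the mitochondrion and 21 of 35 nuclear respiratory chain genes were below it. The mitochondrially encoded list summed to 67844 CPM in preserved spots, 103746 CPM in all spots of the section labelled Vehicle and 34332 CPM in its 66 spots of highest score, so its direction turned with the spots compared. The nuclear list summed to 27499, 44959 and 41969.6 CPM. Distal markers were far below the section labelled Vehicle, with Calb1 at 19.2 and 1311 CPM and Slc12a3 at 84.1 and 732.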

How the data were processed

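Visium sections of 2 obstructed mouse kidneys were analysed, 1 labelled SH045 and 1 labelled Vehicle. For each, the authors deposited raw UMI counts per gene and spot with spot positions, made with Space Ranger 2.0.1 per the file headers and with mm10 per the submitters' processing notes. Aligner settings and the gene models used for counting were not given in the sources used here. The spots, genes and lists were chosen with earlier results of these data known.

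UMIs of a group's spots were added up in Python 3.11.15 (numpy 2.4.6, scipy 1.17.1, pandas 2.3.3) and scaled to CPM. Spots needed 1000 UMIs and genes 10 CPM over all spots. CPM intervals are exact Poisson, folds exact conditional binomial, shares Clopper-Pearson, and log2 ratios have a pseudocount of 1 CPM. The steps were checked on simulated counts. Named genes are the 4 of the score, the 15 highest and 15 lowest with at least 50 CPM and 1 direction in all 4 sectors by position and under median-of-ratios scaling (mitochondrial, ribosomal, haemoglobin, immunoglobulin and predicted genes left out), the 4 members of highest level and those of highest and lowest ratio in each of 39 lists, the cell type markers, and every measured carrier, endocytosis and transcription factor gene. A list symbol for cubilin was corrected to Cubn after the files were seen. The tissue flag of the section labelled Vehicle marks 570 of its 676 spots, and all with 1000 UMIs or more were used. Positions in mm10 come from RefSeq by symbol, with 602 of 615 genes matched. Some genes of the rule are not reported here.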

Additional observations from a re-analysis of the deposited data

How the results depend on the processing

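The choices tried were the percentile and genes of the score, the UMI and CPM minimums, the scaling, equal weight per spot, thinning to 2500 UMIs, the pseudocount, the fold and the comparator. No list median called at 1.5-fold or more reversed its direction under them, and single genes were not followed over the choices. In 135 of 162 recomputed main values a count stayed within 1.5 times, or a list median within 1 SD over the 4 sectors, of the value given. Genes higher numbered 644 and were 1263 with median-of-ratios scaling, 1150 after thinning, 345 with a filter at 50 CPM and 277 at 2-fold. Genes lower numbered 2640 and were 1400 at the 80th percentile, 979 with median-of-ratios scaling, 4206 and 771 with filters at 1 and 50 CPM, and 733 at 2-fold. With median-of-ratios scaling the list medians were 1.19 for amino acid transporters, 0.98 for fatty acid oxidation, 1.95 for gluconeogenesis, −0.59 for injured tubule and −0.44 for macrophages. At the 80th percentile they were 0.49 for fatty acid oxidation, −0.53 for injured tubule and −0.45 for macrophages, and at the 95th −1.22 for injured tubule and −0.94 for macrophages. Macrophage genes had −0.65 with spots weighted equally and −0.50 after thinning. Against touching spots only the medians were 0.58 for amino acid transporters, 0.53 for fatty acid oxidation, −0.69 for structural matrix and 1.29 for xenobiotic enzymes. Against the 521 remaining spots at 1 to 6 steps from the edge they were 1.12 for amino acid transporters and 0.86 for the straight segment. The cause was not tested. Among medians without a call, the podocyte median became 0.13 at the 80th percentile and 0.03 with median-of-ratios scaling, and the straight segment median −0.13 after thinning. No paired analysis was possible because there is 1 section per treatment. With 1 section, spread between animals is unknown, and genes with few UMIs in 79 spots, such as Trpc6, cannot show a difference.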
